A study of Mus musculus with 298 samples.

Results

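Neurons of the mouse suprachiasmatic nucleus (SCN) that carried vasopressin mRNA were compared between day and night. They were selected on measured values: a cell needed at least 100 CPM of Avp, which encodes vasopressin, and less than 100 CPM of Vip, which encodes vasoactive intestinal peptide. CPM is the number of reads of a gene per 1000000 reads of the cell. Among the 127 day and 156 night cells labelled active or silent, 89 qualified, 44 by day and 45 at night. Each cell had been recorded by patch clamp in a brain slice, and its cytoplasm was then drawn into the pipette and sequenced. Mice lived in a 12 h light and 12 h dark cycle. Slices were cut near zeitgeber time (ZT) 0, lights on, for the day cells and near ZT 12, lights off, for the night cells. Of the day cells 23 were labelled active, 13 of them cFOS+ and 10 cFOS-, and 21 silent, 9 of them cFOS+ and 12 cFOS-. Of the night cells 22 were active, 9 of them cFOS+ and 13 cFOS-, and 23 silent, 13 of them cFOS+ and 10 cFOS-. How the cFOS label was given is not stated. The labels name no animal, strain, age or slice, and several cells could come from 1 slice, so each group is 1 sample. No difference between the groups was tested, and time of day cannot be told apart from the slices used at that time.

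Vasopressin neurons form much of the dorsal shell of the SCN and are known as one of its strongest sets of clock cells. In the molecular clock, the activators CLOCK and BMAL1 (gene Arntl) bind E-box sequences and switch on their own repressors, the Per and Cry genes, as well as the REV-ERB nuclear receptors Nr1d1 and Nr1d2 and the output factor Dbp. REV-ERB proteins in turn repress Arntl, so that in the SCN the transcripts of Nr1d1 and Dbp are known to peak by day and that of Arntl at night. Avp is itself a clock-controlled gene with an E-box near its start.

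The selected cells were those of the Avp class throughout the range of its level. Avp ran from 109 to 50094 CPM over the day cells, with a median of 5333, and from 112 to 22598 CPM over the night cells, with a median of 2370. The ranges overlapped, while at least 10000 CPM was reached by 12 of 44 day cells (27.3%) and 3 of 45 night cells (6.67%). Just inside the limit stood 1 day cell at 109 CPM and 1 night cell at 112 CPM, and just outside it 1 day cell at 86.1 CPM and 1 night cell at 82.05 CPM. Vip was at 0 in 37 day and 43 night cells and reached at most 0.71 CPM by day and 21.7 at night. These 2 genes chose the cells, so their levels describe the choice. The Avp cells made up 34.6% of the 127 active or silent day cells (exact 95% interval 26.4 to 43.6%) and 28.8% of the 156 night cells (21.9 to 36.6%). These and all later share intervals treat cells as independent, while each group is 1 sample, so they test no difference. The labels do not say how neurons were picked for recording.

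Depth was alike in both groups, with 4077136 to 12447265 reads per day cell (median 6676873) and 3239417 to 15923020 per night cell (median 6224421). A median of 4171.5 genes was detected per day cell and 4247 per night cell. Summed neuron markers reached at least 100 CPM in all 89 cells. Pooled RNA of some other cell types was higher by day. All 14 microglia markers had reads in each group, and their sum was 1110 CPM by day (0 to 23242 over the cells) and 484 CPM at night (0 to 18937). It reached 100 CPM in 16 day cells (36.4%) and 10 night cells (22.2%). The astrocyte sum did so in 17 day (38.6%) and 11 night cells (24.4%), the oligodendrocyte sum in 18 day (40.9%) and 18 night cells (40%). The sum of 12 astrocyte markers was 525.6 CPM by day (0 to 8406) and 98.6 CPM at night (0 to 871), and that of 12 oligodendrocyte markers 417.2 CPM by day (0 to 5725, with Mog, Sox10 and Cspg4 at 0) and 285.1 CPM at night (0 to 2818). Of 10 endothelial and mural markers the sum was 23.5 CPM by day and 3.47 at night, of 7 ependymal markers 24.7 and 23.5 CPM, and of 12 markers of other hypothalamic neurons 71.9 and 56.2 CPM. The part of this RNA in the gene results was not tested beyond the values given below for the 28 day and 35 night cells under 100 CPM of microglia markers, called the cells without microglia RNA.

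Across genes, the reads of all cells of a group were summed and scaled to CPM, called the pooled level, and differences are log2 of (CPM + 1) by day over (CPM + 1) at night. A gene was measured with at least 10 CPM pooled in 1 group and reads in 25% or more of the cells of 1 group once each cell was thinned to 3000000 reads. This held for 6775 genes. The median log2 ratio of all measured genes was -0.03, with the middle of the distribution from -0.56 to 0.44, and 3258 genes (48.1%) were higher by day. At least 2-fold higher were 8.32% of genes by day and 856 genes (12.6%) at night. On the deposited normalized signal 849 were past 2-fold by day and 844 at night, so day genes made up 50.1% of the genes past 2-fold in place of 39.7%, and the median of all genes shifted by 0.10. A difference was called steady if it was at least 2-fold in the pooled level, in the mean over cells and after the top cell of each group was left out, and had the same direction in active cells, in silent cells and in the thinned share of cells. Steady differences were held by 337 genes by day (4.97%) and by 8.07% of genes at night. Single genes differed much between subsets of cells: the ratios from active cells alone and from silent cells alone correlated across the 6775 genes with a Pearson r of 0.073, a description over genes that share libraries, and 51.9% of genes had the same sign in both. Both groups held cells at or near 0 for each gene named below except Avp, and the ranges over cells overlapped for every gene named.

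Most clock repressors (7 of 9 measured) were higher by day in Avp neurons, as were the output factors Dbp and Hlf, while the activator gene Arntl was lower. Of 24 core clock genes 21 were measured, and 16 of them were higher by day. Their median log2 ratio was 0.73, against -0.03 for all measured genes. At least 2-fold higher by day were 9 of the 21 (42.9%, background 8.32%), and all 9 were steady (background 4.97%). At least 2-fold lower by day was 1 (4.76%, background 12.6%), Arntl, which was steady too (background 8.07%). Npas2, Bhlhe40 and Nfil3 did not pass the limits for a measured gene.

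Among the repressors, Nr1d1, which encodes REV-ERB alpha (chromosome 11, 98767932 to 98775333, minus strand, GRCm38), was found in most cells. It ran from 0 to 4589 CPM over the day cells with a median of 916, and from 0 to 1804 CPM over the night cells with a median of 143.8. The pooled level was 994 CPM by day (95% counting interval of reads 991 to 998) and 422.6 at night (420 to 424.9). These intervals leave out the spread between cells. The log2 ratio of 1.23 lay between 0.61 and 1.58 in the 4 strata formed by firing and cFOS label. The opposite-strand gene Thra, a thyroid hormone receptor that overlaps the end of Nr1d1 by 1075 bases, was at 226 CPM by day and 117 at night. The sources used here do not give the strand setting of the counting, so reads of the shared stretch cannot be assigned. Nr1d2, encoding REV-ERB beta (chromosome 14, 18204054 to 18239127, minus strand), had a median of 111 CPM and a highest value of 1220 CPM by day, against a median of 0 and a highest value of 468 CPM at night. Nr1d2 reached 10 CPM in 28 day cells (63.6%, exact 95% interval 47.8 to 77.6%) but in 12 night cells (26.7%, 14.6 to 41.9%), and the pooled log2 ratio was 2.31.

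Ciart, which encodes the repressor CHRONO (chromosome 3, 95878503 to 95882251, minus strand), differed the most among the clock genes. Its day cells ran from 0 to 659 CPM with a median of 0.44, its night cells from 0 to 300 CPM with a median of 0, and it reached 10 CPM in 21 day cells (47.7%, 32.5 to 63.3%) and 4 night cells (8.89%, 2.48 to 21.2%). The pooled levels of 174 CPM by day and 13.9 at night gave a log2 ratio of 3.55, or 4.17 without the night cell S518. Bhlhe41, the repressor DEC2, was at 85.6 CPM by day and 16.7 at night (log2 2.29), with cells between 0 and 496 CPM by day and between 0 and 252.5 CPM at night. The period genes did not move as 1 group. Per1 had a median of 13.6 CPM and a highest value of 479 CPM by day, against a median of 0.18 and a highest value of 483.4 CPM at night; its pooled levels were 72.4 CPM by day and 17.6 at night (log2 1.98, or 2.81 without the night cell S238). Per3 was at 122.05 CPM by day and 44.2 at night (log2 1.44), with 10 CPM reached in 52.3% of day and 35.6% of night cells, intervals that overlap (36.7 to 67.5% and 21.9 to 51.2%). Per2 was at 260 CPM by day and 351.3 at night (log2 -0.44), with its strata on both sides of 0. The cryptochromes Cry1 (251.1 CPM by day, 190 at night, log2 0.40) and Cry2 (447.4 CPM by day, 549.3 at night, log2 -0.30) also had strata on both sides of 0.

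The output factors of the PAR bZIP family, which act on D-box sequences, were led by Dbp (chromosome 7, 45705088 to 45710203, plus strand). Dbp ran from 0 to 1946 CPM over the day cells with a median of 204, and from 0 to 467.03 CPM over the night cells with a median of 0. It reached 10 CPM in 29 day cells (65.9%, 50.1 to 79.5%) and 10 night cells (22.2%, 11.2 to 37.1%), and the pooled levels of 385.2 CPM by day and 40.0 at night gave a log2 ratio of 3.24, between 1.90 and 4.11 in the strata. Sphk2, a sphingosine kinase, lies on the opposite strand and shares 737 bases with the end of Dbp. It stood at 244 CPM by day and 50.7 at night, and among the day cells 28 had both genes at 10 CPM, 1 had Dbp alone and 1 had Sphk2 alone; among the night cells these counts were 9, 1 and 2. Since the strand of the reads cannot be told, the level of Sphk2 is uncertain. Hlf was at 127 CPM by day and 31.0 at night (log2 2.00, 45.5% and 24.4% of cells at 10 CPM). Tef was at 55.3 CPM by day and 44.4 at night (log2 0.31), and it was the clock gene whose direction turned on the deposited normalized signal, to a value below 0.

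The 4 measured activators were split, with 2 higher by day and 1 past 2-fold in each direction. Arntl (chromosome 7, 113207465 to 113314126, plus strand) had a median of 0 and a highest value of 1293 CPM over the day cells, against a median of 190 and a highest value of 1508 CPM over the night cells. It reached 10 CPM in 15 day cells (34.1%, 20.5 to 49.9%) and 30 night cells (66.7%, 51.0 to 80.0%), and pooled levels of 160 CPM by day and 335.5 at night gave a log2 ratio of -1.06, lower by day in all 4 strata; without the night cell S466 the ratio was -0.96, short of 2-fold. Clock, its partner, was at 52.4 CPM by day and 82.1 at night (log2 -0.64, lower by day in 3 of 4 strata). Of the ROR receptors, which act on the same sites as REV-ERB proteins and activate them, Rorb was at 558.6 CPM by day and 259 at night (log2 1.10, higher by day in all 4 strata), and Rora was at 706 CPM by day and 627 at night (log2 0.17). Of 8 measured kinases, ligases and proteases that set the life of clock proteins, 6 were higher by day with a median of 0.24, and none reached 2-fold; in active cells 3 of 8 were, with a median of -0.18. The casein kinase gene Csnk1e was at 107 CPM by day and 64.3 at night (log2 0.73), with opposite signs in active (-0.64) and silent (1.87) cells.

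**Figure D1:**
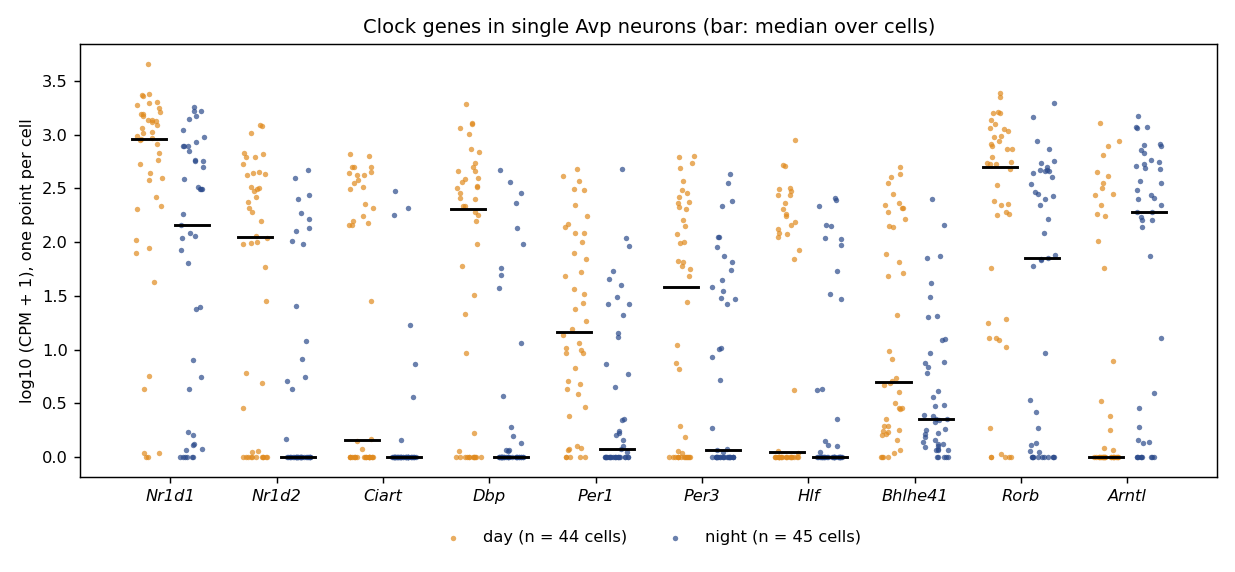
Levels of 10 clock genes in single Avp neurons, as log10 of (CPM + 1), with 1 point per cell, day cells left of night cells and a bar at the median. Many cells of both groups sit at 0, and the day medians of Nr1d1 (916 CPM), Nr1d2 (111 CPM) and Dbp (204 CPM) stand above the night medians (143.8, 0 and 0 CPM), while the day median of Arntl is 0 against 190 CPM at night.

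The direction of these genes was followed across subsets of cells. In all 4 strata Rorb, Per1, Per3, Nr1d1, Nr1d2, Ciart, Bhlhe41, Dbp and Hlf were higher by day, which are the 9 clock genes past 2-fold. The list median was 0.87 in active cells (13 of 21 higher by day), 0.76 in silent cells (15 of 21) and 1.13 in the cells without microglia RNA (16 of 21). Each cell was also scored by how many of the 12 repressor and output genes it held at 10 CPM. Day cells held 2 to 12 of them with a median of 7, and night cells 0 to 10 with a median of 5, and at least 6 were held by 31 of 44 day cells (70.5%) and 16 of 45 night cells (35.6%). Over all measured genes the same count was alike, with a median of 2404 per day cell and 2411 per night cell.

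**Figure D2:**
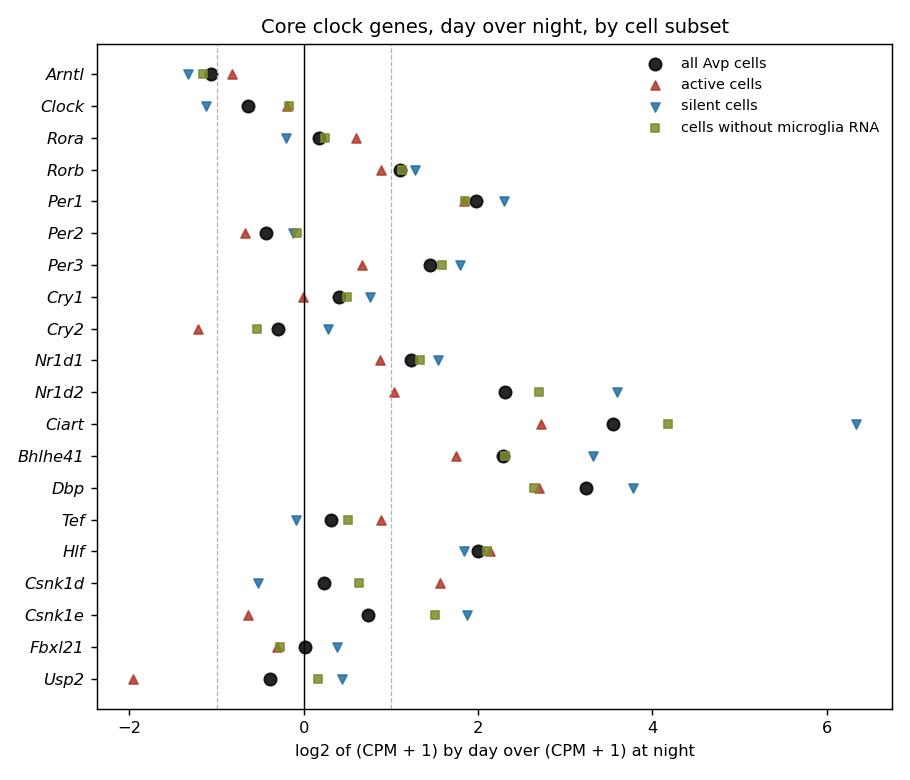
Log2 ratio of (CPM + 1), day over night, for 20 of the 21 measured core clock genes in all Avp cells, in active cells, in silent cells and in cells without microglia RNA; dashed lines mark 2-fold. All 4 symbols lie right of 0 for Ciart, Dbp, Nr1d2, Bhlhe41, Hlf, Per1, Per3, Nr1d1 and Rorb, and left of 0 for Arntl, Clock and Per2.

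The sequences before the starts of Avp itself and of 4 genes that were higher in the day Avp cells are shown because they hold the clock motifs named above. They are RefSeq promoters of build GRCm38.p6, cut to the 250 bases before the start and written 5′ to 3′ on the strand of the gene. Capitals mark the E-box CACGTG in Avp, the secreted signal Prok2, Per1 and Ciart, and the D-box TTATGTAA in Per3. They lie at chr2:130582589-130582838 (minus strand) for Avp, chr6:99726393-99726642 (minus) for Prok2, chr11:69098699-69098948 (plus) for Per1, chr3:95882229-95882478 (minus) for Ciart and chr4:151044666-151044915 (minus) for Per3.
Avp: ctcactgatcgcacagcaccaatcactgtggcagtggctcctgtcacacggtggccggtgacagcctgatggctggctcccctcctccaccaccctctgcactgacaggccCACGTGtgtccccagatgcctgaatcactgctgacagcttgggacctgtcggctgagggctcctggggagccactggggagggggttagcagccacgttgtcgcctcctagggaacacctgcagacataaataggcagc
Prok2: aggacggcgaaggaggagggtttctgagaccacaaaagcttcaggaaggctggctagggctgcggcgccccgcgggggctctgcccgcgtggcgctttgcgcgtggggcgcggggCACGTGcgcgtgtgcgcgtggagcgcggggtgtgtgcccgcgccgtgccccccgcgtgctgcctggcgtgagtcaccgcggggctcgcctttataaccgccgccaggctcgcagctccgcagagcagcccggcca
Per1: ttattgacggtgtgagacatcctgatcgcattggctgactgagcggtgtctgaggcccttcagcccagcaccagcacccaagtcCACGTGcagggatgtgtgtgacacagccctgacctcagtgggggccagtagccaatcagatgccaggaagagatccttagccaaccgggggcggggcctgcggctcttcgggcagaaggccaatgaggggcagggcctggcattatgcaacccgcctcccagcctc
Ciart: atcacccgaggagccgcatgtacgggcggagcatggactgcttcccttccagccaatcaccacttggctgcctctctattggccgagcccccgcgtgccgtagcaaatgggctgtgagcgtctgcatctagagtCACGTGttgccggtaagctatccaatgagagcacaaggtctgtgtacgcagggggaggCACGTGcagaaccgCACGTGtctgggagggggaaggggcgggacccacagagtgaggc
Per3: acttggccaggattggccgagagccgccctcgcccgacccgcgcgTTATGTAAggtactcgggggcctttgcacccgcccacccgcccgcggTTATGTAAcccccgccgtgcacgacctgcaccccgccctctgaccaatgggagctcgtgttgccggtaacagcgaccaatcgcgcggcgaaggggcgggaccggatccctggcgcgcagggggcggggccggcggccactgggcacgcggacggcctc

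The E-box began 139 bases before the start in Avp and 135 bases before it in Prok2. In Ciart E-boxes began 116, 58 and 44 bases before the start, and 1 of the 2 D-boxes of Per3 began 158 bases before its start. The searched motifs were CACGTG, and TTATGTAA or TTACGTAA, on both strands, within 250 bases before to 50 bases after each start, and they do not overlap each other. Of the 21 clock genes 18 matched the promoter table, and an E-box was found in 5 of them (27.8%), namely Bhlhe41, Ciart, Cry1, Per1 and Tef, against 8.09% of 27025 genes. A D-box was found in 1 of the 18, Per3, against 1.23% of genes. A match describes letters in this window only; Dbp and Nr1d1 had none there.

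Of 6 measured peptides that the SCN secretes, other than Avp and Vip, 4 were higher in the day Avp cells (median 1.62). The median was 0.27 with the top cell of each gene left out, and 0.59 in the cells without microglia RNA, where 3 of 6 were higher by day. The 3 past 2-fold by day (50%, background 8.32%) were Prok2, Cck and somatostatin, Sst, which was named after its values were seen. Of these, Prok2 and Cck were steady and Sst was not. At night 1 was past 2-fold (16.7%, background 12.6%). Sst was at 394.9 CPM by day and 73.1 at night (log2 2.42), but it reached 10 CPM in only 2 day and 3 night cells. Its ratio was -5.77 without the day cell S205 and 5.42 without the night cell S465, so 1 cell sets its direction. Avp stood at 9732 CPM pooled by day and 3717 CPM at night (log2 1.39; chromosome 2, 130580620 to 130582554, minus strand). It was higher by day in 3 of 4 strata but not in active cFOS- cells (log2 -0.21), and its ratio was 0.73 in the cells without microglia RNA. Avp chose the cells, so these values describe the choice. Prok2 ran from 0 to 1412 CPM over the day cells with a median of 15.4, and from 0 to 210 CPM over the night cells with a median of 0. It reached 10 CPM in 22 day cells (50%, 34.6 to 65.4%) and 6 night cells (13.3%, 5.05 to 26.8%), with pooled levels of 130 CPM by day and 18.8 at night (log2 2.73, or 3.48 without the night cell S72). Nms, neuromedin S, a peptide of many SCN neurons, had a median of 395.5 CPM by day and 8.52 at night and pooled levels of 723 CPM by day and 407.5 at night (log2 0.83). Cholecystokinin, Cck, reached 10 CPM in 8 day and 5 night cells, and its pooled log2 ratio of 3.41 was 2.03 without the day cell S197 and 4.55 without the night cell S128. Penk, the enkephalin precursor, was at 148.5 CPM by day and 354.7 at night (log2 -1.25), but at 0.14 without the night cell S465, so it has no settled direction. Of 3 measured receptors for these peptides, the VIP receptor Vipr2 was at 395.7 CPM by day and 398.3 at night (log2 -0.01) and the prokineticin receptor Prokr2 at 422.5 CPM by day and 214 at night (log2 0.98), with opposite signs in active (3.16) and silent (-1.18) cells.

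Candidate regulators of the Avp gene, mostly of the CREB family and its coactivators, were spread widely, with 5 of 7 measured members higher by day (median 1.16), 4 past 2-fold by day (57.1%, background 8.32%) and 2 past 2-fold at night (28.6%, background 12.6%). The direction turned in the cells with higher cell numbers, which are running numbers in the sample titles, with 2 of 7 higher by day and a median of -0.74. Crem, which encodes the cAMP-responsive modulator CREM and its repressor form ICER, reached 10 CPM in 16 day cells (36.4%, 22.4 to 52.2%) and 3 night cells (6.67%, 1.40 to 18.3%). Its cells ran from 0 to 795 CPM by day and from 0 to 399 CPM at night, and pooled levels of 112 CPM by day and 9.21 at night gave a log2 ratio of 3.47, or 4.55 without the night cell S540. Creb1 reached 10 CPM in only 9 day and 4 night cells, and its log2 ratio of 3.02 was 2.25 without the day cell S190, 4.58 without the night cell S499 and -2.73 in the cells with higher numbers. The coactivator gene Crtc3 ran the other way, at 15.3 CPM by day and 38.9 at night (log2 -1.29, or -0.89 without the night cell S466 and -2.56 without the day cell S194).

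The path from peptide synthesis to release showed smaller differences. Of 20 measured genes for dense-core vesicles and prohormone processing 13 were higher by day, with a median of 0.20, and 1 reached 2-fold (5%, background 8.32%). That was Vgf, a secreted granule protein, which had a median of 399 CPM and a highest value of 1432 CPM by day, against a median of 125.9 CPM and a highest value of 1134 CPM at night (pooled 438.6 CPM by day, 191.7 CPM at night, log2 1.19). Pam, the enzyme that amidates peptides, was at 187 CPM by day and 110 at night (log2 0.76), and the vesicle gene Rab27b at 61.7 CPM by day and 121.7 at night (log2 -0.97). In contrast, 18 of 20 measured chaperones and unfolded-protein genes of the endoplasmic reticulum were lower by day, by small amounts, with a median of -0.34 and 2 past 2-fold (10%, background 12.6%). P4hb, a protein disulfide isomerase, had a median of 2.28 CPM by day and 316 at night and pooled levels of 221.3 CPM by day and 374 at night (log2 -0.76). The related Pdia4 was at 32.5 CPM by day and 110 at night (log2 -1.74), and the stress sensor Atf6 at 13.2 CPM by day and 44.8 at night (log2 -1.69, or -0.69 without the night cell S511). In active cells alone 9 of the 20 were higher by day (median -0.13), and in silent cells 3 (median -0.43). As a difference of mean log2 values over cells, 8 of the 20 were higher by day.

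Regulators of G protein and cyclic nucleotide signals leaned towards the day cells. Of 18 measured members 13 were higher by day (median 0.54), with 7 past 2-fold by day (38.9%, background 8.32%) and 2 past 2-fold at night (11.1%, background 12.6%). Rgs16, which speeds the switching-off of inhibitory G proteins and is known to follow the SCN clock, ran from 0 to 800 CPM over the day cells with a median of 17.99, and from 0 to 430 CPM over the night cells with a median of 0. It reached 10 CPM in 24 day cells (54.5%, 38.8 to 69.6%) and 9 night cells (20%, 9.58 to 34.6%), and its pooled levels of 154 CPM by day and 30.9 at night gave a log2 ratio of 2.28, above 0 in all 4 strata. Pde10a, a phosphodiesterase that breaks down cAMP and cGMP, had a median of 54.1 CPM by day and 0 at night, with pooled levels of 294.98 CPM by day and 81.9 at night (log2 1.84). Gem, a small GTPase that restrains calcium channels, was at 455.6 CPM by day and 159 at night (log2 1.51), with 0.17 in active and 2.71 in silent cells. Rgs17 reached 10 CPM in 13 day and 6 night cells (log2 3.50, or 4.28 without the night cell S253). The adenylyl cyclase Adcy2 was lower by day, at 37.96 CPM by day and 234.8 at night (log2 -2.60, or -3.27 without the day cell S551), and reached 10 CPM in 8 day cells (18.2%) and 19 night cells (42.2%).

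Most genes for ribosomal proteins and respiration were higher by day over all Avp cells, each by little, but this depended on the subset of cells. Of 37 cytosolic ribosomal protein genes 32 had a higher level by day, and their median was 0.45, against -0.03 and 48.1% for all measured genes. In each direction 1 was past 2-fold (2.70%, background 8.32% by day and 12.6% at night). Rpl32 was at 157.1 CPM by day and 73.6 at night (log2 1.08, or 0.92 without the day cell S191), and Rpl22 at 7.25 CPM by day and 22.1 at night (log2 -1.48, or -0.99 without the night cell S511). The median was 0.70 in active cells, where 33 of 37 were higher by day, and 0.07 in silent cells, where 22 were. It was 0.79 in cFOS+ cells, with 33 higher by day, and 0.0076 in cFOS- cells, with 19 higher by day. Of 37 nuclear genes of the respiratory chain 29 were higher by day (median 0.21). Among lower cell numbers 35 of them were (median 0.47), and among higher cell numbers 21 were (median 0.09). Uqcrfs1, the iron-sulfur subunit of complex III, had a median of 232.3 CPM by day and 0.21 at night and pooled levels of 294 CPM by day and 140 at night (log2 1.07, or 0.92 without the day cell S205). Cytochrome c, Cycs, reached 10 CPM in 32 day cells (72.7%) and 20 night cells (44.4%; log2 0.68). Of 7 measured mitochondrially encoded genes 6 were higher by day (median 0.31), but in the cells without microglia RNA 4 were, with a median of 0.01. For glycolysis and lactate 11 of 17 were higher by day (median 0.15), with none past 2-fold.

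**Figure D3:**
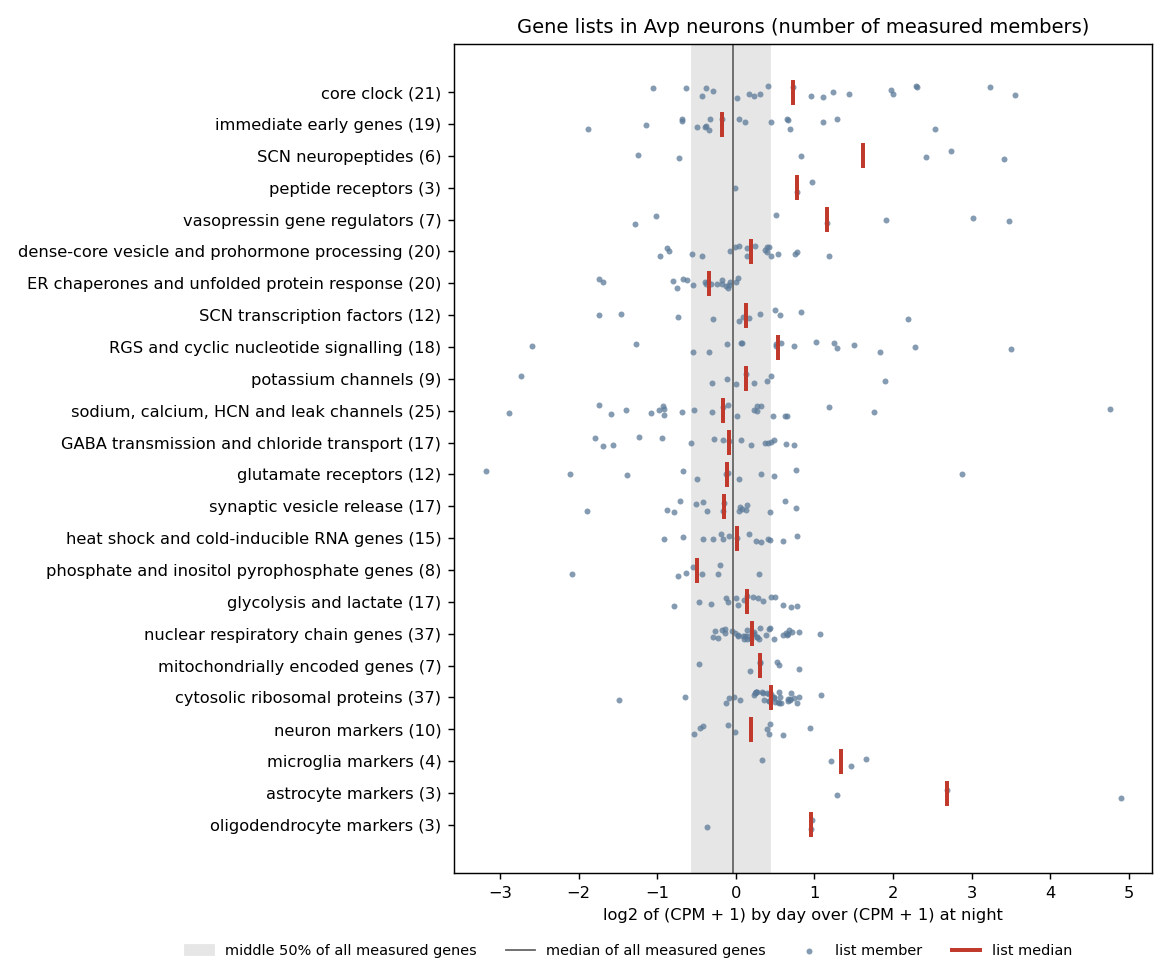
Log2 ratio of (CPM + 1), day over night, for each measured member of 24 gene lists in Avp neurons, with the list median in red and the middle 50% of all measured genes in grey. Furthest right lie the medians of astrocyte markers (2.69), peptides (1.62), microglia markers (1.33) and Avp regulators (1.16), each from 3 to 7 members. Those of oligodendrocyte markers (0.96) and peptide receptors (0.78), with 3 members each, come next. The core clock (0.73), G protein and cyclic nucleotide signals (0.54) and ribosomal proteins (0.45) follow, right of the median of all measured genes (-0.03). Phosphate genes (-0.49) and endoplasmic reticulum chaperones (-0.34) lie left of it.

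Genes induced by neuronal activity did not share a direction. Of 19 measured immediate early genes other than Fos, 9 were at a higher level by day (median -0.17; 10 and 0.05 on the deposited normalized signal), and the median was -0.42 in active and 0.66 in silent cells. Fos, a subunit of the AP-1 factor (chromosome 12), ran from 0 to 8006 CPM over the day cells with a median of 771, and from 0 to 11427 CPM over the night cells with a median of 761. The pooled levels were 1911 CPM by day and 1583 at night (log2 0.27), with -0.72 in active and 1.01 in silent cells. Gadd45g, a stress-inducible growth arrest gene, was at 1184 CPM by day and 550 at night (log2 1.11, or 0.81 without the day cell S197). Fosl2 reached 10 CPM in 12 day and 3 night cells (log2 2.54, or 1.78 without the day cell S498 and 4.34 without the night cell S72). Klf4 was at 7.23 CPM by day and 29.2 at night (log2 -1.88), but at 0.15 without the night cell S518.

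Transcription factors that shape the SCN were higher by day for 8 of 12 measured members (median 0.12; 4 of 12 in active and 5 of 12 in silent cells). Foxp1, a forkhead factor, was at 57.95 CPM by day and 11.9 at night (log2 2.19), and Sox1 at 8.79 CPM by day and 31.7 at night (log2 -1.74).

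Channels and receptors showed no common shift. Potassium channels were higher by day for 6 of 9 measured members (median 0.13), channels for sodium, calcium and mixed cations for 11 of 25 (median -0.16), GABA genes for 8 of 17 (median -0.09), glutamate receptors for 5 of 12 (median -0.11; 7 of 12 and 0.18 on the deposited normalized signal) and genes of synaptic vesicle release for 8 of 17 (median -0.15). Kcnip4, which binds Kv4 channels, was at 186 CPM by day and 49.0 at night (log2 1.90, or 2.94 without the night cell S128), with 0.62 in the cells without microglia RNA. The calcium-activated channel gene Kcnn3 was lower by day, at 9.24 CPM by day and 67.4 at night, and reached 10 CPM in 3 day cells (6.82%) and 13 night cells (28.9%; log2 -2.74, or -3.83 without the day cell S410). Grin2c, an NMDA receptor subunit, was at 108 CPM by day and 284.3 at night (log2 -1.38, or -2.25 without the day cell S194), with 0.32 among cells with lower cell numbers. Of the GABA genes, the receptor subunit Gabrg3 reached 10 CPM in 15 day cells (34.1%) and 29 night cells (64.4%; log2 -0.95), and Gad2, which makes GABA, was at 294 CPM by day and 175.6 at night (log2 0.74).

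The series' title names a phosphate transporter, so phosphate genes were followed in the Avp cells too. Of 8 measured transporters and inositol pyrophosphate genes 1 was higher by day, with a median of -0.49, and 1 was past 2-fold at night (12.5%, background 12.6%). The importer gene Slc20a2 had 0 as the median of both groups and highest values of 587 CPM by day and 726 at night, with pooled levels of 48.1 CPM by day and 71.01 at night (log2 -0.55). Its ratio was 0.03 in active and -1.17 in silent cells. Slc20a1 was at 100.7 CPM by day and 118 at night (log2 -0.22), and the exporter gene Xpr1 at 96.4 CPM by day and 111 at night (log2 -0.20), both with opposite signs in active and silent cells. Ppip5k2, a kinase that makes inositol pyrophosphates, was at 13.5 CPM by day and 60.5 at night (log2 -2.09, or -2.78 without the day cell S62). Among 15 heat shock and cold-inducible genes, 8 were higher by day (median 0.02). The cold-inducible RNA-binding protein gene Cirbp had a median of 268 CPM by day and 478 at night (log2 -0.67), and the chaperone gene Hsp90ab1 a median of 2351 CPM by day and 1519 at night (log2 0.61).

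Ranking all genes with a steady difference by its smallest size gave mostly genes found in few cells. The 12 ranked highest by day were Nefh, Scn1a, Slc1a3, Dfna5, Slc2a8, Rgs17, Ptgds, Ciart, Tcaim, Mtcl1, Cck and Crem. Ciart and Mtcl1, a microtubule crosslinker, were the most widely found, at 10 CPM in 47.7% and 40.9% of day cells, against 8.89% and 11.1% of night cells. Scn1a, a sodium channel, reached 10 CPM in 2 day cells and 1 night cell, and its log2 ratio of 4.76 was 3.78 without the day cell S497. Slc1a3, the astrocyte glutamate transporter GLAST, was at 179 CPM by day and 5.05 at night (log2 4.90), or 3.53 without the day cell S490 and 5.83 without the night cell S72. The 12 ranked highest at night were Ulk3, Ift140, Ppp2r5e, Cadm3, Suv39h1, Stt3b, Arfgef2, Zfp641, Patl1, Supt16, Tmem145 and Gnptab, with log2 ratios from -5.66 (Ulk3) to -3.38 (Gnptab). Tmem145, a transmembrane protein, reached 10 CPM in 4 day cells (9.09%) and 18 night cells (40%; log2 -3.41, or -4.22 without the day cell S483), and Ift140, of the ciliary transport machinery, in 1 day cell (2.27%) and 10 night cells (22.2%; log2 -5.25).

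A view limited to widely detected genes, those with at least 10 CPM in at least 50% of the cells of 1 group, was added after the values were seen. It held 1939 genes, of which 66 were at least 2-fold higher by day (3.4%) and 79 at night (4.07%). The share limit and the steady rule favour genes found in more cells of 1 group. Share differences in this view are therefore partly set by the choice. The 12 steady genes ranked highest by day were Dbp, Prok2, Kpna2, Nr1d2, Rgs16, Sphk2, Cript, Per1, Pde10a, Ttc19, Gem and Per3. Dbp, Nr1d2, Per1 and Per3 are on the core clock list, whose share of all widely detected genes was not counted. Kpna2, an importin that carries cargo into the nucleus, reached 10 CPM in 22 day cells (50%) and 11 night cells (24.4%), with pooled levels of 108 CPM by day and 19.6 at night (log2 2.40). Cript, which binds the synaptic scaffold PSD-95, was at 207 CPM by day and 49.7 at night (log2 2.03). Ttc19, an assembly factor of complex III, was at 150 CPM by day and 49.5 at night (log2 1.58, or 2.24 without the night cell S540); it shares 12026 bases with the opposite-strand gene Ncor1.

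The 12 ranked highest at night in that view were Snd1, Cpeb4, Gtf2ird1, Inpp4a, Spin1, Banp, Atp6v0e2, Add3, Kcnh8, Mob4, Xpo1 and Ccsap. Snd1, a nuclease that binds RNA, ran from 0 to 524.2 CPM over the day cells with a median of 0, and from 0 to 1778 CPM over the night cells with a median of 12.9. Its pooled levels of 35.9 CPM by day and 245.5 at night gave a log2 ratio of -2.74, between -3.14 and -2.55 when each cell was left out in turn. Cpeb4, which controls the poly(A) tails of mRNAs and thereby their translation, reached 10 CPM in 11 day cells (25%, 13.2 to 40.3%) and 30 night cells (66.7%, 51.0 to 80.0%), with pooled levels of 28.9 CPM by day and 129 at night (log2 -2.12). Inpp4a, a phosphatase of inositol lipids, reached it in 23 day cells (52.3%, 36.7 to 67.5%) and 38 night cells (84.4%, 70.5 to 93.5%; log2 -1.96). Xpo1, the exportin that carries proteins and RNA out of the nucleus, was at 89.1 CPM by day and 253.2 at night (log2 -1.50). Gtf2ird1, a transcription factor, had a log2 ratio of -1.99, or -3.01 without the day cell S196, and Add3, an adducin of the membrane skeleton, one of -1.64, or -2.33 without the day cell S477.

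**Figure D4:**
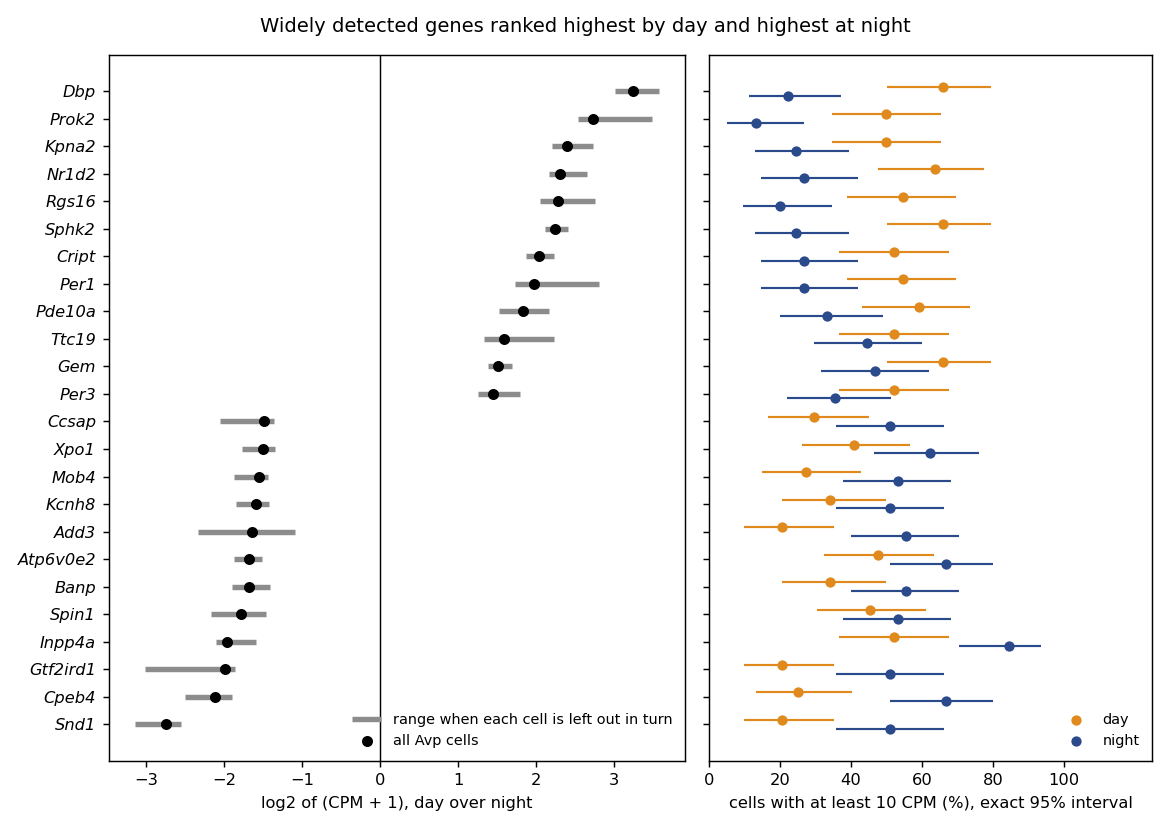
Left, log2 ratio of (CPM + 1), day over night, of the 12 widely detected genes ranked highest by day and the 12 ranked highest at night, with the range when each cell was left out in turn; right, share of Avp cells with at least 10 CPM and exact 95% intervals, day above night. No range crosses 0, which is largely set by the choice of genes that stay past 2-fold without their top cells. The share intervals were 50.1 to 79.5% by day and 11.2 to 37.1% at night for Dbp. For Cpeb4 they were 13.2 to 40.3% by day and 51.0 to 80.0% at night. The share gaps are also partly set by the choice, since the genes had to be wide in 1 group and steady. These intervals treat cells as independent, while each group is 1 sample.

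Markers of other cell types were few among measured genes, and the ratios of microglia markers moved much with single cells. All 4 measured microglia markers were higher by day (median 1.33, but -1.55 in silent cells), among them Csf1r at 188 CPM by day and 58.7 at night. Without the day cell S491 the log2 ratio of Csf1r was 0.44 in place of 1.66, that of Ctss 0.34 in place of 1.46 and that of C1qb -0.64 in place of 1.21; without the night cell S263 they were 2.92, 3.84 and 3.65. Without the cells with microglia RNA, a set chosen by these genes, the list median was 0.31. All 3 measured astrocyte markers were higher by day (median 2.69), and 2 of 3 oligodendrocyte markers (median 0.96), with Mbp at 238.2 CPM by day and 122.2 at night. With each cell left out in turn, the lowest astrocyte ratios were 3.53 (Slc1a3), 1.75 (S100b) and 0.66 (Slc1a2). In silent cells alone, S100b was at -0.83. Neuron markers were higher by day for 5 of 10 (median 0.19).

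The clock genes of the Avp cells were set beside those of the other cells, which share no cell with them but may share slices. Cells with neither Avp nor Vip at 100 CPM numbered 61 by day and 81 at night, and cells that reached 100 CPM of Vip 22 by day and 30 at night; 1 day and 6 night cells of the Vip class also reached the Avp limit. Against 16 of 21 clock genes higher by day in Avp cells (median 0.73), 10 of 21 were in cells with neither peptide (median -0.05) and 14 of 21 in Vip cells (median 0.84). Dbp had a log2 ratio of 3.24 in Avp cells, 0.71 in cells with neither and 2.38 in Vip cells, and Ciart one of 3.55 in Avp cells, 1.06 in cells with neither and 3.15 in Vip cells. Arntl was lower by day in each class, with -1.06 in Avp cells, -1.78 in cells with neither and -1.47 in Vip cells. Per3 was at 1.44 in Avp cells, -0.27 in cells with neither and -0.53 in Vip cells. The differences between the classes were not tested.

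Counted per cell, the 12 repressor and output genes gave a median of 7 by day and 5 at night in Avp cells, of 6 by day and 5 at night in cells with neither peptide, and of 7.5 by day and 4 at night in Vip cells. At least 6 of them were held by 60.7% of day and 46.9% of night cells with neither peptide, and by 90.9% of day and 30% of night Vip cells. Across all 6775 genes measured in Avp cells, the day over night ratios of Avp cells correlated with those of cells with neither peptide at a Pearson r of 0.042 and with those of Vip cells at 0.066, as a description over genes.

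**Figure D5:**
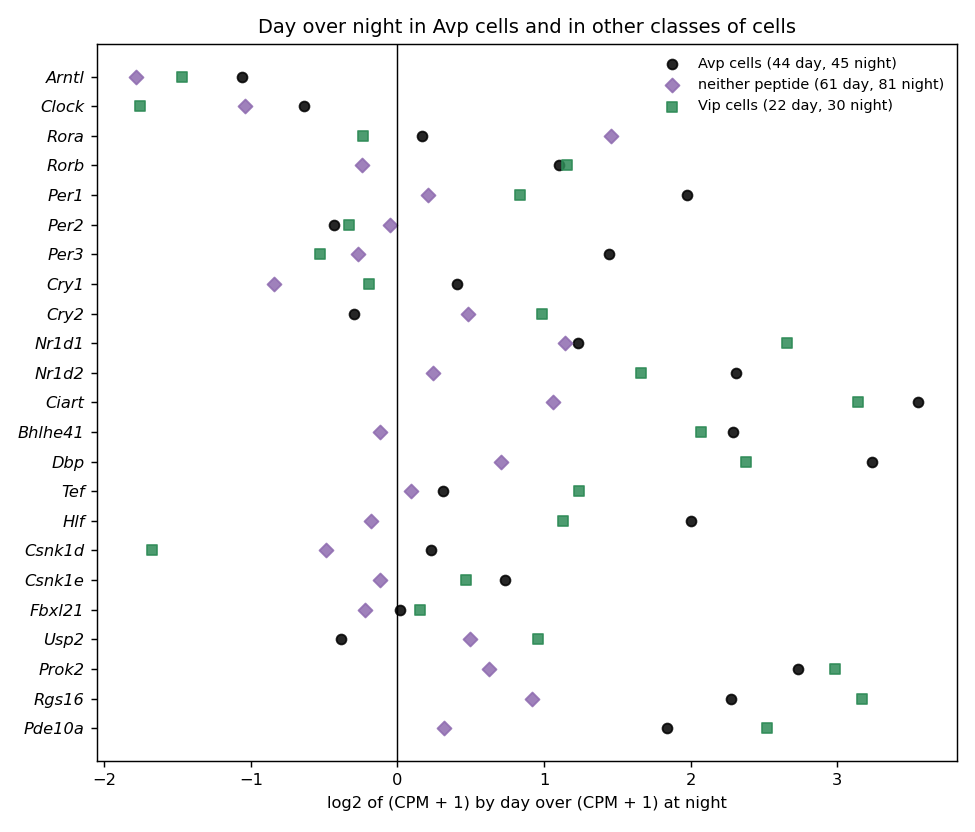
Log2 ratio of (CPM + 1), day over night, for 20 of the 21 measured core clock genes and for Prok2, Rgs16 and Pde10a in Avp cells, in cells with neither peptide and in Vip cells. Nr1d1, Ciart and Dbp lie right of 0 and Arntl and Clock left of 0 in all 3 classes, while Per3 lies right of 0 in Avp cells (1.44) and left of 0 in the others (-0.27 and -0.53).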

How the data were processed

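Counts per gene for 22800 gene symbols in 298 single cells were used as deposited by the authors, who made the libraries with the Nextera XT kit, per the labels' protocols. The counts are reads, since no molecular identifiers are mentioned. The authors also deposited a normalized signal, in which each cell is scaled by a single factor; its logarithm was not used. STAR, DESeq2 and GRCm38.p4 are listed in the submitters' processing notes, while versions, annotation and strand setting are not given in these sources. Gene positions come from GENCODE M21 (GRCm38), which may differ from the annotation behind the counts.

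Cells were selected on CPM of Avp and Vip computed from the counts, among active and silent cells. Cell S71, nearly identical to S70 (r of log2 CPM 0.9995), was left out; both had 0 reads of Avp. The highest correlation between 2 Avp cells was 0.588. The 5 day and 1 night depolarized cells that met the limits were kept out. No doublet caller was run, as each library came from 1 pipette. Pooled CPM was computed with Python 3.11.15, pandas 2.3.3 and scipy 1.17.1, with exact Poisson 95% intervals; shares of cells have exact Clopper-Pearson intervals that treat cells as independent. Both cover counting error only, not animals or slices. The Poisson intervals count reads, not molecules, since no molecular identifiers are mentioned, and they leave out the spread between cells. CPM is not scaled to gene length, so levels of different genes are not compared. Group ratios carry no p-value, because each group is 1 sample.

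Genes named were, with at least 20 CPM, the 12 highest and 12 lowest steady ratios without predicted, ribosomal and mitochondrial genes, all measured clock genes, Avp, Fos and phosphate transporters, and the leading members of each list. Widely detected genes, Sst, Sphk2, Thra and Camta1, and which listed genes to describe, were chosen after values were seen. The selected cells and the gene lists were chosen with earlier results of these data known. A listed clock gene enters the counts and medians but is not reported here. The ratio was recovered in simulated data with known changes. Simulated cells of a group differed only in depth and counting error, so the spread between real cells was not covered.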

Additional observations from a re-analysis of the deposited data

How the results depend on the processing

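The core clock median of 0.73 stayed between 0.66 and 1.34 under all 20 other settings. The counts of genes past 2-fold were higher in subsets, which hold fewer cells: by day and at night (856 in all cells) they were 1090 and 1365 in active cells, 1020 and 1525 in silent cells, 1131 and 1313 in cFOS+ cells, 1051 and 1556 in cFOS- cells, 1080 and 1433 in cells with lower numbers and 1006 and 1465 in cells with higher numbers. Without cells with microglia RNA 979 were past 2-fold by day, on the deposited normalized signal 849, and with a limit of 1 CPM and no limit on the share of cells 2301 by day and 3077 at night. Limited to widely detected genes, a setting chosen after seeing the data, the counts were 66 by day and 79 at night.

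Of the 90 named genes past 2-fold, 78 kept their direction under every setting run for them and 12 turned in at least 1. Many were named through the steady rule. That rule already asks for 1 direction in means over cells, without the top cell, and in active and silent cells. For such genes, agreement under those settings was set by the choice. Sst turned in 6, to -2.77 without the top cell of each group, -0.29 as a difference of mean log2 values, -3.12 with at least 1000 CPM of Avp, -3.29 in cFOS+ cells, -6.41 among higher cell numbers and -5.94 without cells with microglia RNA. In silent cells Klf4 turned to 0.78, Penk to 2.93, Ctss to -1.26, C1qb to -7.08 and the astrocyte marker S100b to -0.83, and in active cells Atf6 to 0.58. In cFOS+ cells Creb3l2 turned to -0.43, Atf6 to 1.98 and S100b to -1.64. Among lower cell numbers Grin2c turned to 0.32, Csf1r to -2.72, Ctss to -0.38, C1qb to -0.94 and Slc1a2 to -0.069, and among higher ones Creb1 to -2.73 and Creb3l2 to -1.66. Penk was at 0.74 with at least 1000 CPM of Avp, and Slc1a2 at -0.18 as a difference of mean log2 values. The cause was not tested.

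No paired analysis was possible because the labels name no animal or slice and cell numbers do not recur across groups. The Avp cells fall into 15 stretches of 1 time of day along the cell numbers, so cell number and time of day are partly joined. Genes found in few cells rest on single libraries at this depth.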

Other observations

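Outside the comparison, 6 depolarized cells met the Avp and Vip limits. The 5 day cells had Dbp at 93.2, 120, 266, 287.8 and 756 CPM, and the night cell, with 10834 CPM of Avp, had Dbp and Ciart at 0 and Nr1d1 at 419.5 CPM. Arntl was at 311.3 CPM in 1 of the day cells, at 1.41 CPM or less in the other day cells, and at 0 in the night cell.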
